A study of Mus musculus with 4 samples.

Results

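Of the 20727 distinct m6A peaks listed for mouse splenic natural killer (NK) cells, 165 were assigned to a small noncoding RNA gene. These peaks lay in 156 genes and were chosen by the annotation alone, as the peaks whose gene identifier has the gene type miRNA, snoRNA, snRNA or scaRNA in GENCODE for GRCm38. The cells came from C57BL/6 mice, taken here as wild-type although the methods do not state a genotype for these libraries. Per the methods of the study, an IL-15 expression plasmid had been injected. NK cells were left to expand for 1 to 2 months before they were sorted from the spleen. Polyadenylated RNA was cut into short fragments, and 2 libraries were made from fragments pulled down with an antibody against N6-methyladenosine (m6A) and 2 input libraries from fragments without antibody. The methods give an age of 6 to 10 weeks for the mice of the study as a whole, and the sex of the mice is not given in the sources used here, nor is the number of animals behind a library. The 4 libraries together gave a single peak list, with 1 fold enrichment (immunoprecipitate over input) and 1 peak-calling p per peak. It had 0 columns with a value per library, so no error between replicates, no depth and no library total can be given, and each value below is a single value for the whole experiment. Of 8 NK cell marker genes, 8 had a peak (Ncr1, Klrb1c and Prf1 among them), as did 3 of 5 T cell, 1 of 3 B cell, 4 of 4 myeloid and 2 of 2 red cell markers. A peak shows that RNA of a gene was found but not how much, and the part of other cells in the small RNA peaks was not tested.

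Small noncoding RNAs guide the handling of other RNAs. MicroRNAs are cut from hairpins in longer primary transcripts and pair through their seed with messenger RNAs, and primary miRNA transcripts can be methylated by METTL3 and recognised by DGCR8. Most snoRNAs lie in introns of host genes and guide the chemical modification of ribosomal RNA, with box C/D snoRNAs guiding ribose methylation and box H/ACA snoRNAs guiding pseudouridylation. The snRNAs form the core of the spliceosome, and scaRNAs guide their modification in Cajal bodies. The U6 snRNA carries an m6A placed by METTL16 in its ACAGAGA box, and U2 snRNA is a substrate of METTL4. Mature miRNAs, snoRNAs and most snRNAs carry no poly(A) tail, whereas the host transcripts that contain them usually do.

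The miRNAs best known from lymphocytes with a peak here were miR-181b and miR-142, which are shown with their seed (bases 2 to 8) in capitals, as RefSeq gives them for GRCm38.p6. The first 4 belong to Mir142 and Mir142b, which are read from opposite strands of 1 locus, and to the 5′ arm shared by Mir181b-1 and Mir181b-2.
miR-142a-5p: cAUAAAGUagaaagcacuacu
miR-142a-3p: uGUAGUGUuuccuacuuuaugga
miR-142b: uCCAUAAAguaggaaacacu
miR-181b-5p: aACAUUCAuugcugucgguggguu
miR-181b-1-3p: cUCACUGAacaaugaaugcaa
miR-181b-2-3p: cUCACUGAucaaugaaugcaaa
Both 3′ arms of miR-181b had the seed UCACUGA, the only seed shared among the 48 mature miRNAs found for the members, which had 47 distinct seeds. A RefSeq miRNA sequence was matched by symbol for 28 of the 64 miRNA genes with a peak. Most of the other genes are GENCODE models with Gm symbols. Mir124a-1 and Mir1668 were also without a matched sequence, although RefSeq names both. The 25 hairpins that were compared with the genome were identical to it (25 of 25).

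Peaks fell in a small minority of the annotated small RNA genes. A peak was assigned to 64 of 2202 miRNA genes (2.91%), 51 of 1507 snoRNA genes (3.38%), 37 of 1383 snRNA genes (2.68%) and 4 of 51 scaRNA genes (7.84%), or 3.03% of the 5143 genes of these classes, against 46.4% of protein-coding genes. The 71 miRNA peaks made up 43.0% of the set, the 52 snoRNA peaks 31.5%, the 38 snRNA peaks 23.0% and the 4 scaRNA peaks 2.42%. Only 9 genes had more than 1 peak. Among the genes with a peak, 103 had provisional symbols beginning with Gm, so that most members are gene models without an established name.

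Many of the peaks touched an annotated exon of another gene. In 91 of 165 peaks the span from start to end touched an exon of a gene outside the 4 classes on the strand of the small RNA gene (a host exon, by at least 1 nt), and in 23 more it touched an exon on the opposite strand only. Host exons covered at least 50% of the span in 36 of the 165. Another 21 lay in an intron of a gene on the same strand, 4 in an intron on the opposite strand, and 26 where no other gene was counted. Genes of other short RNA types and their exons were not counted here or below, and 3 of the 26 lay in such genes, those of 7SL. The list does not give the strand of a peak, so for the 23 peaks opposite an exon the 2 strands cannot be told apart. The classes differed in this respect. A host exon was present in 37 of 52 snoRNA peaks and 42 of 71 miRNA peaks, but in 12 of 38 snRNA peaks and 0 of 4 scaRNA peaks.

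**Figure D1:**
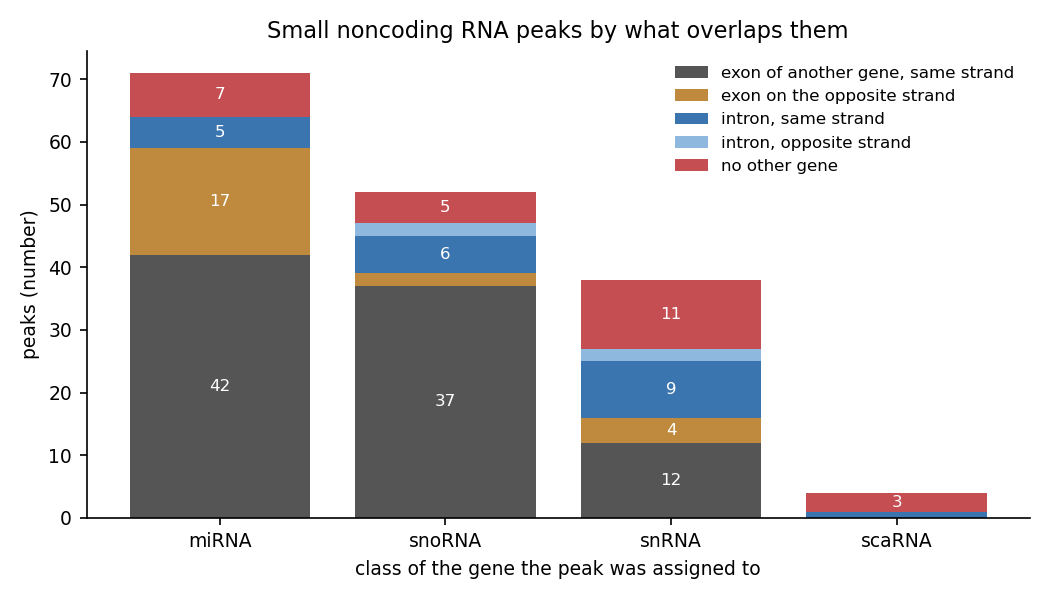
Stacked bars give the number of peaks (y axis) assigned to miRNA, snoRNA, snRNA and scaRNA genes (x axis), coloured by the annotation that overlaps the peak. Host exons account for 42 miRNA, 37 snoRNA and 12 snRNA peaks. No other gene counted here overlaps 11 snRNA, 7 miRNA, 5 snoRNA and 3 scaRNA peaks.

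In 49 of the 91 peaks with a host exon, the exon touched the span of the peak but not the small RNA itself, which lay outside the exons. In the other 42 the exon ran over the small RNA gene. The host gene was protein-coding for 57 peaks. The peaks with a host exon named 82 host genes, of which 42 also had peaks assigned to them directly. Among the 52 coding hosts 39 had such peaks, but among the 30 hosts that are not coding only 3 did.

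The small RNA peaks had higher fold enrichment than the list as a whole. Their median fold enrichment was 7.59 (interquartile range 2.01 to 17.1), against 2.66 over all peaks, 2.37 over peaks of protein-coding genes, 11.4 over those of lincRNAs and 13.3 over those of pseudogenes. A fold enrichment of at least 5, here called strong, was found for 93 of the 165 peaks (56.4%), beside 34.6% of all peaks. A peak-calling p under 0.001 was found for 111 (67.3%), beside 61.5% of all peaks. The values nearest to the threshold for a strong peak were 3.79 for Gm44367 and 5.69 for Snora78, with no member between. The fold of 5.69 with a log10 p of -1.63 was given for 3 members and 200 peaks of the list, so some strong members had a weak p. These are descriptions of 1 list in which peaks are not replicates, and no test was made of them.

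The 74 peaks without a host exon had a median fold enrichment of 9.48 and the 91 with one a median of 3.24, a difference of 1.55 on the log2 scale. The difference was 3.10 among peaks with a p under 0.001 and 2.74 when only protein-coding hosts were counted. Of the peaks without a host exon 52 were strong (70.3%), and of those with one 41 (45.1%). The 51 peaks that touched no counted exon on either strand stood higher still, with a median of 13.9 and 45 strong peaks (88.2%). The p-values followed the opposite order, since a p under 0.001 was found for 68 of 91 peaks with a host exon (74.7%) and for 27 of these 51 (52.9%). The order of the fold medians was not the same in each class. For snoRNA peaks the medians were 9.48 without a host exon and 2.0 with one, but for miRNA peaks 3.79 and 6.35. The 12 miRNA peaks with no counted exon on either strand had a median of 20.75.

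The medians lay further apart between kinds of host than between peaks with and without one. Where the host was protein-coding the median fold enrichment was 1.99 (57 peaks, 12 strong), beside 2.15 for the 67 peaks assigned to those hosts directly. Where the host was not coding it was 16.2 (34 peaks, 29 strong). By class, snoRNA peaks in coding hosts had the lowest median, 1.80 for 25 peaks, and miRNA peaks in hosts that are not coding the highest, 19.0 for 15 peaks. The snRNA peaks had a median of 15.2 with a host exon and 13.6 without, and for them the medians with and without a host exon lay close together.

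**Figure D2:**
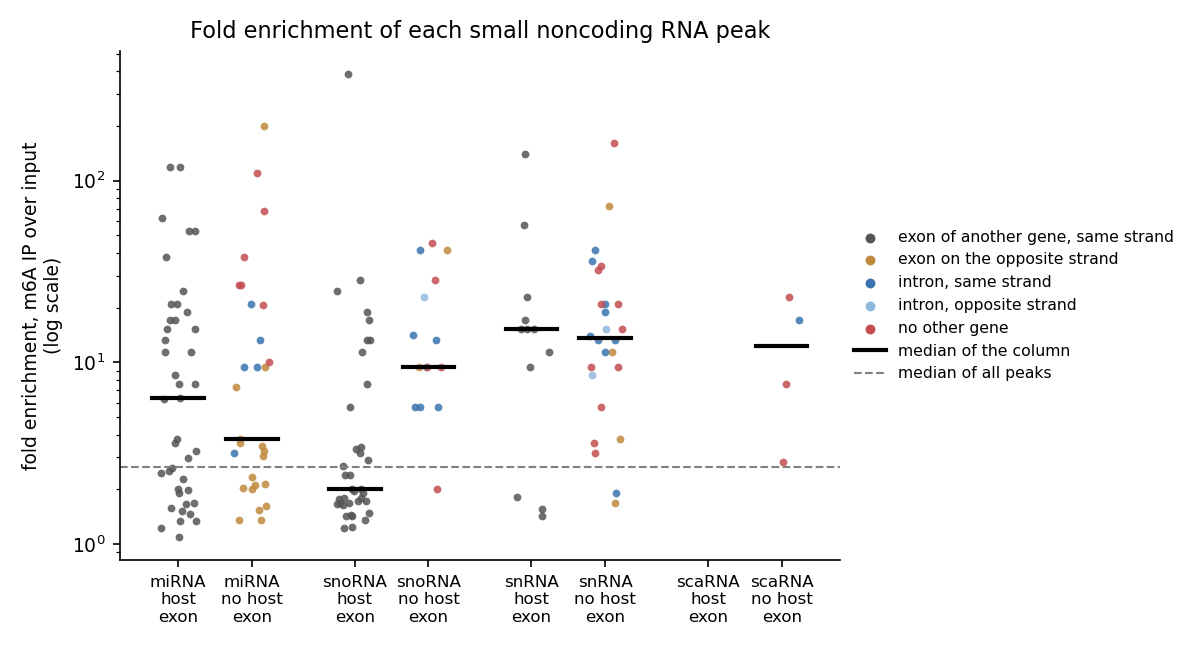
Each point is 1 peak, with its fold enrichment on a log axis (y) by class and by presence of a host exon (x); bars are column medians and the dashed line is the median of all peaks, 2.66. For snoRNAs the column median is 2.0 with a host exon and 9.48 without, whereas for snRNAs both medians lie above 13. For miRNAs it is 6.35 with a host exon and 3.79 without.

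Fold enrichment and p-value placed the members in 2 arms. Some peaks with exons of coding hosts combined low folds with very low p-values, the lowest being a log10 p of -1090 for Gm26377 inside Eef1a1. Peaks with high folds often had the weakest p that the list gave for such a fold. For 62 of the 93 strong small RNA peaks (66.7%) no peak of the same or a higher fold had a weaker p, as was so for 3836 of the 7179 strong peaks of the list (53.4%). Some pairs of values recurred exactly. The pair of 9.48 for the fold and -1.69 for the log10 p was given for 10 members and for 845 peaks of the list, and 13.3 with -2.50 for 7 members and 367 peaks. At least 20 peaks of the list shared the same pair of values with 68 of the 165 members (41.2%), against 24.2% of all peaks. What sets these recurring values was not tested.

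**Figure D3:**
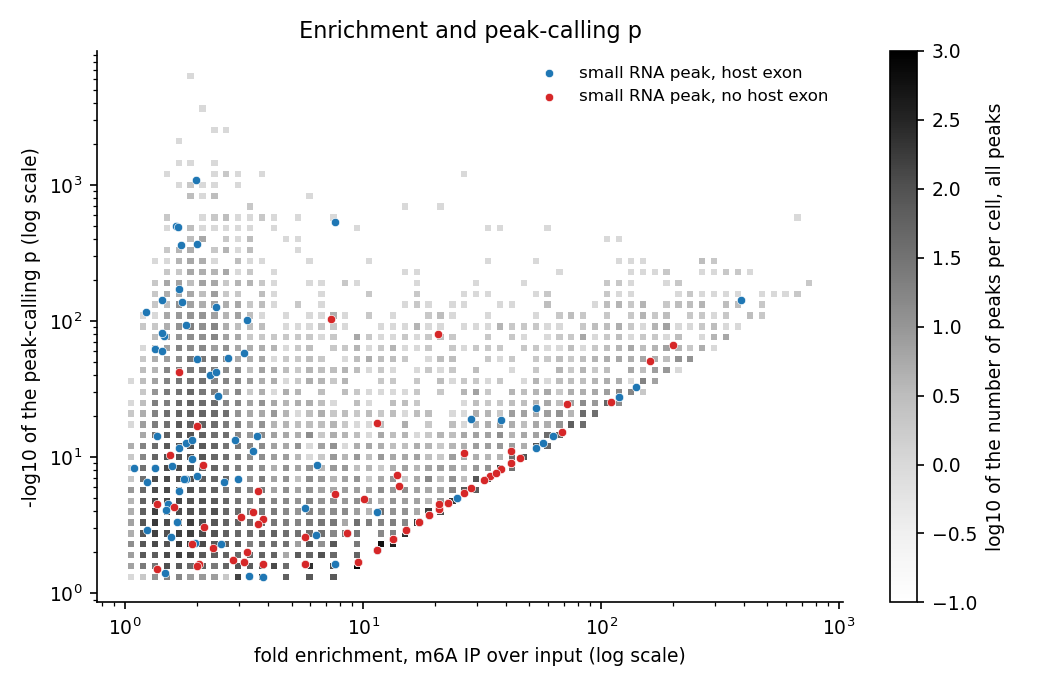
Fold enrichment (x, log axis) against the -log10 of the peak-calling p (y, log axis) for small RNA peaks with a host exon (blue) and without (red), over grey cells shaded by the number of all peaks. Blue points reach a log10 p of -1090 at folds near 2, while most strong members lie along the lower edge of the grey cloud.

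Peaks lay on the small RNA gene in either of 2 ways. In 64 peaks the span stayed within the small RNA gene, and 60 of them ran exactly from its first to its last annotated base. The other 101 reached beyond it, with spans of up to 1448448 nt, and 32 members spanned more than 10000 nt. The 64 peaks within the gene had a median span of 126 nt (55 to 232) and a median fold enrichment of 11.4, against 1.99 for the 8369 other peaks of the same range of span. For peaks that reached beyond the gene the median fold was 3.25 and the median span 2786 nt. Among the 64 peaks, 56 had no host exon. Restricting the comparison to the 85 members with a span of at most 500 nt left medians of 10.8 for the 62 peaks without a host exon and 3.32 for the 23 with one.

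**Figure D4:**
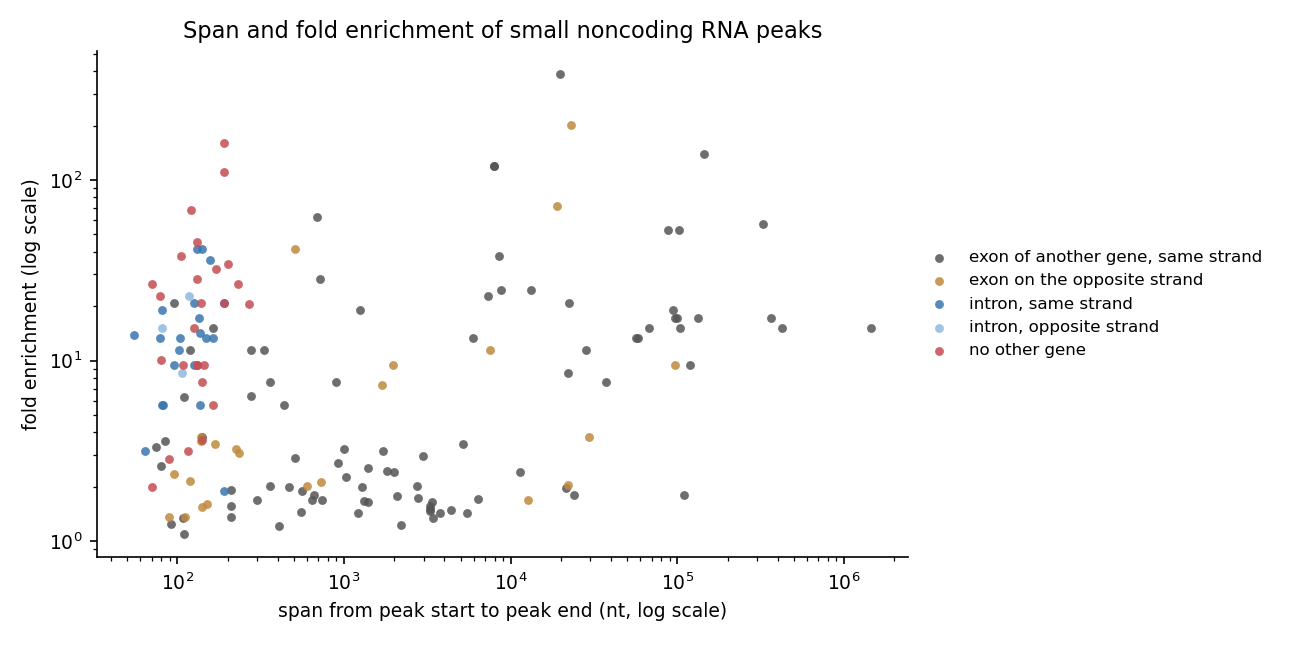
Span of each small RNA peak from start to end in nt (x, log axis) against its fold enrichment (y, log axis), coloured by what overlaps it. Peaks in introns or away from other counted genes have spans of 55 to 270 nt, and peaks with a host exon range from 74 to 1448448 nt.

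Among the miRNA genes, 31 entries of lymphocyte miRNAs were searched, covering 53 annotated genes, and 3 genes from 2 entries had a peak. None of the genes searched for miR-155, miR-150, miR-146a, miR-21a, miR-223, the let-7 family or the miR-17 cluster had a peak assigned to them. miR-142 is abundant in blood cells, and its locus held a pair of peaks. The peak assigned to Mir142 (chr11:87756864-87756927) covered the 64 nt hairpin in an intron of Mir142hg at a fold of 3.16 (log10 p -1.69). It lay inside a peak of 1694 nt assigned to Mir142b on the opposite strand, which had 7.33 (log10 p -103) and touched an exon of the host transcript Mir142hg. The deposited list thus assigned the larger peak to the antisense miRNA gene, and which strand its reads came from cannot be told apart. miR-181b acts in lymphocyte development and antigen receptor signalling. Mir181b-1 had a peak of 101731 nt that touched exons of Gm37534 and of other genes that are not coding, with a fold of 53.1 (log10 p -11.7). A peak assigned to D130019J16Rik inside that span had a fold of 258 (log10 p -153). Mir181b-2 had a peak of 1960 nt with a fold of 9.48 (log10 p -1.69), which held an exon of Gm44144 on the opposite strand. The same mature sequence, miR-181b-5p, is made from both hairpins.

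Strong miRNA peaks were found at long noncoding transcripts that carry miRNA hairpins. Mir214, which lies in Dnm3os, had a pair of peaks that differed by 2 nt in their ends and each had a fold enrichment of 119 (log10 p -27.6). Mir770 in Meg3, an imprinted long noncoding RNA, had a fold of 24.7 (log10 p -5.04). Mir135a-2 in Rmst had 19.0 (log10 p -3.75), and Mir125b-2 in Mir99ahg and Mir137 in Gm26871 had 17.1 each (log10 p -3.33). Mir129-2 in Mir670hg had 15.2 (log10 p -2.91) and Mir124a-1 in Mir124a-1hg had 13.3 (log10 p -2.5), both short of a p under 0.001. The pairs of values from Mir135a-2 to Mir124a-1 each recurred in 138 to 367 peaks of the list. Several of these miRNAs, among them miR-124, miR-137 and miR-9, are best known from neurons. The highest miRNA value was that of Gm25641, the gene of miR-9b, with a fold of 201 and a log10 p of -66.5. Its peak spanned 23147 nt opposite Gm3764, the strand that carries Mir9-1. The mature forms of miR-9b, and 1 arm each of miR-214 and miR-137, are shown with the seed in capitals.
miR-9b-5p: uUCGGUUAucuagcuuuauga
miR-9b-3p: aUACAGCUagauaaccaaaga
miR-214-3p: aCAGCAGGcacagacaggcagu
miR-137-3p: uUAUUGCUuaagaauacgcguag
These peaks spanned from 5911 nt (Mir124a-1) to 361820 nt (Mir125b-2), introns included, and the list gives no exon blocks, so they cannot be placed on the hairpin itself.

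A second group of miRNA peaks touched exons of messenger RNAs, some of them with low folds and very low p-values. In some of these peaks the exon lay beside the miRNA and did not reach it. Gm26377 lies in an exon of Eef1a1, which encodes a translation elongation factor, and had 2 peaks, one of 469 nt (fold 1.99, log10 p -1090) and one of 108 nt that matched the model exactly (fold 1.34, log10 p -62.2). Gm22133 in the ferritin light chain gene Ftl1 had the lowest fold of all members, 1.09, inside a peak of Ftl1 of fold 1.86. Gm23419 in the actin gene Actg1 had a fold of 3.58 and Gm27597 in Rpl19 a fold of 2.61. Mir692-3 had folds of 1.90 and 6.32 in Ftl1-ps1, which is named as a ferritin pseudogene but annotated as protein-coding and counted so here. Over the 27 miRNA peaks with a coding host exon the median fold was 2.45, and 8 were strong. The highest among them was Mir7673 in Klhl15, at 62.6. Mir6340, which lies opposite an exon of the small GTPase gene Rab22a, had a pair of peaks with folds of 1.61 and 2.14.

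Another group, chosen after its values were seen, consisted of miRNA models that lie antisense to replication-dependent and variant H2A histone exons. The 6 genes Gm44313, Gm44335, Gm44346, Gm44364, Gm44367 and Gm44394 lie opposite exons of Hist3h2a, H2afx, Hist1h2an, H2afj, Hist1h2ai and Hist1h2ae, which encode core histone H2A proteins. Their 9 peaks had folds of 1.36 to 3.79 with a median of 3.06, and 0 were strong. The models formed 2 groups that start at different places of the H2A exon sequence. Gm44367 and Gm44394 were identical and shared their sequence with 9 annotated genes in all. Pairs from different groups were 68.1% to 70.2% identical when aligned end to end over the longer model. That share counts the unmatched ends of offset models, and the 2 sequences below are nearly the same in the stretch that both cover. One of each group is shown as RefSeq's GRCm38 genome has it, with GGAC, the core of the m6A consensus, in capitals.
Gm44364 (chr6:136808543-136808683, minus strand): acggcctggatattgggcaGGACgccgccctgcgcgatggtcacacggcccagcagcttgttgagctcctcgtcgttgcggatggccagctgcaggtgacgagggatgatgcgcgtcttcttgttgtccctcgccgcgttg
Gm44367 (chr13:21716667-21716804, minus strand): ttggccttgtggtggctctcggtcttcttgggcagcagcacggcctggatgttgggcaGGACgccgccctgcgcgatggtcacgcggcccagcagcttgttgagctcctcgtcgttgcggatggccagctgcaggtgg
Gm44364 had a peak of fold 1.54 inside a peak of the histone gene H2afj of fold 3.04, and Gm44313 had a second peak with a fold of 1.36 inside a peak of Trim17 of fold 1.99.

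Of the 7 miRNA peaks where no other gene was counted, 3 lay in genes of 7SL, the RNA of the signal recognition particle, which are annotated as misc_RNA and were not counted as hosts. Gm47295 in Rn7s1 had a fold of 20.6 and a log10 p of -80.4, the lowest p of the peaks without a counted exon on either strand. Gm47305 and Gm47299 in Rn7s2 had folds of 26.6 and 10.1. The other 4 were hairpin models away from any annotated gene. Gm27864 had a fold of 110 (log10 p -25.3), Gm23550 68.3 (log10 p -15.3), Gm24063 37.9 and Gm24080 26.6, and each of these peaks ran over the whole model. Gm23550, for which the list gives the peak chr7:103267115-103267235 on the minus strand of the gene, holds GGAC at 2 places, in capitals.
Gm23550: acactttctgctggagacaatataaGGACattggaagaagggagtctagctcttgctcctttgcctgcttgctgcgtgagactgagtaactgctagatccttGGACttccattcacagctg
No RefSeq miRNA entry was found for these 4 models.

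The snoRNA peaks were divided most clearly by their hosts. The 12 peaks of snoRNAs that touched exons of ribosomal protein genes had folds of 1.22 to 3.32 with a median of 1.73, and 0 were strong. Their 9 hosts included Rpl13a, Rps3a1, Rpl39 and Rpl5, and 8 of the 9 also had peaks of their own, with a median fold of 2.04 over 18 peaks. Rnu73b in Rps3a1 had the lowest p of all snoRNA peaks (fold 1.64, log10 p -496), followed by Snora31 in Tpt1 (fold 1.66, log10 p -491) and Snora69 in Rpl39 (fold 2.0, log10 p -370). Tpt1 encodes translationally controlled tumour protein, another highly translated product. The Rpl13a locus carries a cluster of box C/D snoRNAs, and it held 4 of these peaks, with folds of 1.22 for Snord34, 1.68 and 1.72 for Snord32a and 3.32 for Snord33.

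Noncoding transcripts that host snoRNAs gave a wider range. Snora74a, an H/ACA snoRNA in the noncoding transcript AC121821.1, had a fold of 28.4 (log10 p -18.9). Snora78 in Snhg9 had 5.69, Snord22 in Snhg1 had 2.90, Snord12 in Zfas1 had 1.91 and Snora73b in Snhg3 had 1.69. The Snhg genes and Zfas1 have no known protein product and are best known as snoRNA hosts. The highest fold of all members was 387 (log10 p -142) for Gm26495, a SNORA4 copy, whose peak of 19805 nt spanned exons of Ptprb. Ptprb encodes a receptor tyrosine phosphatase best known from blood vessels, and its exons do not reach the snoRNA.

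The 15 snoRNA peaks without a host exon had a median fold of 9.48, and 14 of them were strong, against 10 of 37 with a host exon. Split by family as RefSeq names it, the 9 H/ACA peaks without a host exon had a median of 14.2 and the 20 with one a median of 2.20. For box C/D snoRNAs the medians were 5.69 over 3 peaks and 1.72 over 13 peaks.

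Within 4 coding genes a snoRNA peak lay wholly inside a wider peak of its own host gene, so both values can be set side by side. Gm22270, a SNORA66 copy in an intron of Rpl5, had a fold of 41.7 (log10 p -11.1), whereas the surrounding Rpl5 peak had 1.27. Snord15a, which guides methylation of the large ribosomal RNA, had a fold of 13.3 against 1.85 for Rps3. Snord72 had 5.69 against 2.09 for Rpl37, and Gm23547, a U89 RNA, had 5.69 against 1.33 for Phb2. In each of these 4 the snoRNA value was the higher, but only Gm22270 had a p under 0.001. A second SNORA66 copy, Gm26387, whose peak touched exons of Rpl5, had a fold of 2.70. The 2 snoRNAs with the widest gaps are shown, with the TGATGA and CTGA of the C and D boxes of Snord15a and the terminal ACA of Gm22270 in capitals.
Snord15a (chr7:99482785-99482932, minus strand): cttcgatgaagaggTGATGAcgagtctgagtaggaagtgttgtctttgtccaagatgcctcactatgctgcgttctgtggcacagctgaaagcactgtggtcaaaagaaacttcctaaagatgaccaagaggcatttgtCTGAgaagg
Gm22270 (chr5:107905177-107905308, plus strand): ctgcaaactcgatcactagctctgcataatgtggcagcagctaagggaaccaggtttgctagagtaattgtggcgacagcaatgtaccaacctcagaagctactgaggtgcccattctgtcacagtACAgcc
In these sequences GGAC does not occur.

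**Figure D5:**
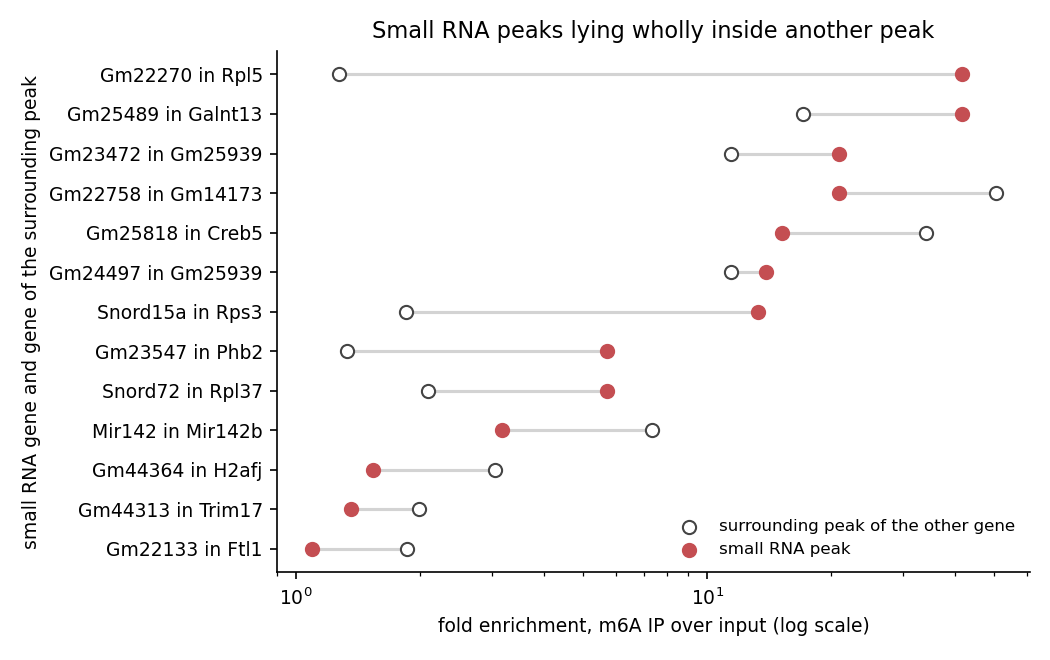
Fold enrichment (x, log axis) of the 13 small RNA peaks that stay within their gene and lie wholly inside a peak of another gene (red), beside that of the surrounding peak (open circles), 1 pair per line. The small RNA value is the higher in 7 pairs, by the widest margin for Gm22270 in Rpl5 (41.7 against 1.27), and the lower in the other 6.

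Copies of SNORA17, an H/ACA snoRNA, gave 4 peaks, all strong, but only 1 had a p under 0.001. Their median span was 132 nt, and the longest was 57764 nt and so reached far beyond its gene. Snora17 itself and Gm23596 had the same values, a fold of 9.48 and a log10 p of -1.69, Gm23604 had 13.3, and Gm26288 had 45.5 (log10 p -9.90). The copies were 75.8% to 82.6% identical, and Gm26288 and Snora17 are shown with the ACA near the 3′ end in capitals.
Gm26288 (chr7:58148096-58148227, minus strand): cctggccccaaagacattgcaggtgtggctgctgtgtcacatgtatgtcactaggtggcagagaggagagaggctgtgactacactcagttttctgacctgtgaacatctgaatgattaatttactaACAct
Snora17 (chr2:26639190-26639321, minus strand): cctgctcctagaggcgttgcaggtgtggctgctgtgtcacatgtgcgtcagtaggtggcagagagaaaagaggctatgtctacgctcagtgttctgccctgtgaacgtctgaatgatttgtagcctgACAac
Gm26288 had the highest fold of the snoRNA peaks without a host exon, followed by Gm22270 and Gm22504 (a SNORA43 copy opposite Timm10b), both at 41.7, Gm22797 (a SNORA71 copy) at 28.4 and Gm24439 at 22.8. The only one of the 15 snoRNA peaks without a host exon that was not strong was Snord104, a box C/D snoRNA, with a fold of 2.0 and a log10 p of -1.60.

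Among snRNA peaks the highest fold was that of a U2 gene. U2 pairs with the branch point of introns, and 5 of its gene copies had a peak. Gm23971 had a fold of 161 (log10 p -50.7), the highest of all members without a counted exon on either strand. Gm26316, a copy on the opposite strand of chromosome 11, had 20.9 (log10 p -4.54). The other 3 lay in introns of D230017M19Rik, where Gm23472 had 20.9, Gm24497 13.9 and Gm25939 1.90. A wider peak of 28400 nt across that host, also assigned to Gm25939, had 11.4. The 5 copies were 97.9% to 99.5% identical, and 4 annotated genes have the exact sequence of Gm23971, so that reads from one copy can align to another and single copies are uncertain. The U2 sequence contains 1 GGAC, in capitals.
Gm23971 (chr11:101645740-101645930, minus strand): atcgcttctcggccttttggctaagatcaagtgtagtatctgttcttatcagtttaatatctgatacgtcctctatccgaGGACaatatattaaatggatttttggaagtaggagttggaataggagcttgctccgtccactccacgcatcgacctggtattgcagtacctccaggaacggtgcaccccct

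U6, the catalytic snRNA that bears the METTL16 site, had peaks in 10 gene copies, of which 8 were strong. Only 3 of these peaks stayed within the gene, and their folds were 8.53 for Gm24967, 9.48 for Gm25810 and 11.4 for Gm25323, none with a p under 0.001. The other 7 reached far beyond it, with spans of 3258 to 1448448 nt and folds of 1.56 to 140. The highest were Gm25755 (140, log10 p -32.6) and Gm25401 (56.9), whose peaks spanned exons of the noncoding genes Gm37359 and Gm48740. The lowest p of the U6 peaks, a log10 p of -42.5 at a fold of 1.69, was that of Gm23264 opposite exons of Ndufv2, a subunit of respiratory complex I. The letters ACAGAGA were found in 7 of the 10 copies. They occur on the gene strand in 9 of the 37 snRNA genes with a peak (24.3%) and in 583 of all 1383 (42.2%). Of the copies with peaks within the gene, Gm24967 has 43 identical annotated copies, itself included. Copies of U6 differ, with identities of 61.0% to 95.3% among the 10, so that most members are diverged gene copies.

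U1, which recognises the 5′ splice site, had 5 peaks. The 4 that stayed within the gene had folds of 36 (Gm25515 in an intron of Mthfd1l), 15.2 (Gm25818), 13.3 (Gm26244) and 5.69 (Gm24305). The fifth, Gm26110, had the lowest p of the snRNA peaks (log10 p -60.5) at a fold of 1.43, and its peak of 3787 nt spanned exons of Fcgr4, which encodes an Fc receptor. U4 had a fold of 3.62 (Gm24265) within the gene and 11.4 (Gm25284) for a peak of 7521 nt that reached beyond it. U5, the snRNA that aligns both exons, had 3.16 (Gm25099) within the gene and 3.79 (Gm23793) over 29358 nt. Neither U5 peak had a p under 0.001. For the minor spliceosome, which removes a rare class of introns, U6atac copies had 72.1 (Gm23441, over 19050 nt opposite Mir124-2hg) and 15.2 (Gm22031). The U12 gene Gm23502 had 9.48. Away from named families, Gm25489 in an intron of Galnt13 had 41.7, against 17.1 for the Galnt13 peak around it, and Gm22122 had 34.1 with no gene around it. Across the 22 snRNA peaks with no counted exon on either strand, 19 were strong and the median fold was 14.6.

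All 4 scaRNA peaks stayed within the gene and had no host exon. Scarna17 had a fold of 22.8 (log10 p -4.61), and Gm23119, an adjacent gene that RefSeq also names scaRNA 17, had 7.59 (log10 p -5.40). Gm24289, the scaRNA 14 gene in an intron of Tipin, had 17.1 (log10 p -3.33). Scarna2 had 2.84 (log10 p -1.77), and its peak of 89 nt covered 21.5% of the gene, whereas the peaks of the other 3 ran from end to end. Gm24289 is shown with its terminal ACA, the H/ACA box, in capitals.
Gm24289 (chr9:64295931-64296065, plus strand): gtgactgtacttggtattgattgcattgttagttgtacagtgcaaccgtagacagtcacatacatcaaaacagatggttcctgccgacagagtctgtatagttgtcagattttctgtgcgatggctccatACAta

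The m6A core motif was searched on both strands of the small RNA peaks. GGAC on the strand of the gene was found in 22 of the 64 peaks within the gene (34.4%) and in 2928 of 8363 other peaks of 55 to 232 nt (35%). On the other strand the shares were 28.1% and 32.3%. GGACT, which contains GGAC, was found in 5 of the 64 (7.81%) and in 12.6% of the other peaks. Over whole genes the picture varied by class. GGAC occurred in 28 of 64 miRNA genes with a peak (43.8%) against 26.0% of all annotated miRNA genes, and the 6 models antisense to H2A exons were among the 28. It occurred in 14 of 37 snRNA genes (37.8%) against 17.8%, to which the U2 copies and the U1 copies contributed 5 each. For snoRNAs the shares were 19.6% and 20.4%. The letters of both C/D boxes, TGATGA within the first 20 nt and CTGA within the last 20 nt, were found in 12 of 51 snoRNA genes with a peak (23.5%) and 20.5% of all. An ACA in the last 8 nt was found in 30 of 51 (58.8%) and 46.8% of all. A match of letters does not show a methylated site.

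Many genes that make and bind small RNAs also had peaks. Of 23 genes of miRNA biogenesis and function 17 had a peak, as did 16 of 20 snoRNP genes, 21 of 30 snRNP genes and 4 of 6 m6A enzyme genes, beside 46.4% of all protein-coding genes. Of those with a peak, 8 (47.1%), 8 (50%), 10 (47.6%) and 2 (50%) had a strong one, near the 43.4% of protein-coding genes with a peak. The 46.4% counts all 21924 annotated protein-coding genes, expressed in these cells or not, and no share among expressed genes was computed. Dicer1, which cuts miRNA precursors, had a fold of 17.1 (log10 p -3.33). Dgcr8, which binds the primary hairpin, had 15.2 (log10 p -6.53), and Drosha, its nuclease partner, had 1.82 (log10 p -5.72). Fbl, the methyltransferase of box C/D snoRNPs, reached 360 (log10 p -210). Dkc1, the pseudouridine synthase of H/ACA snoRNPs, reached 9.48 (log10 p -1.69), a pair of values given for 845 peaks of the list. Mettl16 had a strong peak of 7.59 with a weak p (log10 p -1.63) and another of 2.04 (log10 p -5.41). Mettl14 had a peak of 2.63 (log10 p -5.23), while no peak was assigned to Mettl3 or Mettl4.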

How the data were processed

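In all, 2 m6A immunoprecipitates and 2 input libraries of splenic NK cells gave 1 deposited peak list for GRCm38. Per the methods and labels, the authors trimmed reads, aligned them with HISAT2, called peaks with exomePeak and assigned genes with ChIPseeker. The fold enrichment in the deposited list is a ratio of immunoprecipitate to input reads made by the authors, and the significance is a score deposited as the log10 of the unadjusted peak-calling p (weakest value -1.30). Start, end, span and chromosome were read as the authors deposited them. How replicates were combined and how multiply aligned reads were treated is not given in the sources used here. The list held 20751 entries, of which 24 repeated another, and 20727 were kept. Replicates have no value of their own, so depth, replicate error and intervals from it cannot be given.

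Gene types, exons and strands came from GENCODE vM21, and sequences and RNA names from RefSeq GRCm38.p6, matched by position (at least 50% of the union of both genes), which named 106 of 156 genes. Host exons were exons of genes outside the 4 classes and other short RNA types, on the strand of the small RNA gene. The list gives peak spans but no exon blocks, so the whole span was used where exonic parts had been planned. The overlap code was tested on simulated peaks. Medians, counts and shares describe this list, and no test was made. Analyses used Python with pandas, pysam and Biopython. Named genes follow a rule: lymphocyte miRNAs, per class the 5 highest folds and 3 lowest p-values (overall and without a host exon), scaRNAs and genes with several peaks, except 1 miRNA gene that is not reported here. Any other gene was picked with its values in view. The members and lists were chosen with earlier results of these data known.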

Additional observations from a re-analysis of the deposited data

How the results depend on the processing

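Over 29 recomputed values of 5 results (the number of peaks, the number with a host exon, the median fold, the share of strong peaks and the difference of median log2 fold without minus with a host exon), 22 stayed within the limits set for them (a factor of 1.5 for numbers, 95% binomial bounds for the others), 7 moved beyond and 0 changed sign. The 22 include all 5 results with repeated rows kept, where nothing could change because 0 members were repeated. Only the difference could change sign. The 95% bounds count peaks as if they were independent, so they are limits for this comparison and not an error between replicates. They were wide for the difference, from 0.17 to 2.61. The number of peaks with a host exon, 91, became 36 when host exons had to cover at least 50% of the span, 59 with protein-coding hosts only and 42 when the exon had to overlap the small RNA itself, an alternative chosen after seeing the data. The difference of 1.55 on the log2 scale became 3.10 for peaks with a p under 0.001 and 2.74 with protein-coding hosts only, and it ranged down to 0.95 when the exon had to overlap the small RNA. The share of peaks at or above the fold threshold, 56.4% at 5, was 77% at 2 and 41.8% at 10. Merging overlapping peaks left 151 of 165. Limiting spans to 500 nt was also added after seeing the data and gave a difference of 1.69. No paired analysis was possible because the list gives no value per library, and for the same reason leaving out each replicate was not run. The depth is unknown, the strand of a peak is not given, and reads of near-identical gene copies cannot be told apart.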

Other observations

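Of the 18 peaks assigned to misc_RNA genes, a class that includes 7SL and was not counted among the small RNA genes, 16 were strong (88.9%), and their median fold enrichment was 13.3. In all, 41 small RNA peaks were overlapped by a peak assigned to another gene, and 17 lay wholly inside one. The small RNA peak had the higher fold in 10 of these 17.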
